A study of Mus musculus with 8 samples.

Results

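Small heat shock proteins are short chaperones that share an alpha-crystallin domain and hold unfolding proteins in a state from which they can be refolded or degraded. Bag3 is a cochaperone that couples small heat shock proteins, above all Hspb8, to Hsp70 and directs damaged client proteins, such as filamin, to autophagy. In contracting muscle this route, known as chaperone-assisted selective autophagy, removes cytoskeletal proteins that were unfolded by mechanical tension, and several of these genes are classical targets of the heat shock transcription factor Hsf1. The expression of 7 such genes was examined in mouse aorta, namely the small heat shock genes Hspb1, Hspb2, Hspb6, Hspb7, Hspb8 and Cryab, and Bag3. They were chosen by function, as chaperones of muscle tissue, after Hspb1 and other heat shock genes had been seen in the same data to be lower than CTRL with AngII and at AngII+3W, and they are 7 of the 35896 genes in the table. All 7 passed the filter on low counts that left 17182 genes to be tested.

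RNA of whole aortic tissue from 16 male C57BL6 mice, 11 weeks old at the start, was sequenced as 8 libraries, with the tissue of 2 mice pooled in each. Angiotensin II was delivered by osmotic minipump at 2.8 mg/kg/day for 2 weeks. Tissue was taken when the infusion ended (AngII, 2 libraries), 2 weeks later (AngII+2W, 2 libraries) or 3 weeks later (AngII+3W, 2 libraries), and the 2 CTRL libraries came from untreated littermates of matched age, whose labels give no time point of sacrifice. The 2 libraries of a group come from different pools of mice, so that an SD below is the spread between 2 pools.

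The counts summed to between 18130441 and 21498200 in a library, and between 8.15% and 18.3% of them came from mitochondrial genes. Smooth muscle markers marked the tissue as labelled, with all 10 markers above the floor of 3 counts and a summed level of 8508 and 10927 CPM (read counts scaled to a common library total after TMM normalization) in CTRL, against 2042 to 2565 CPM with AngII, 4161 to 4588 CPM at AngII+2W and 2063 to 3895 CPM at AngII+3W. Markers of striated muscle, which also expresses the 7 genes, varied between libraries of the same group. The sum of 10 cardiac muscle markers was 5729 and 2554 CPM in CTRL, 1554 and 985.8 CPM with AngII, 259.7 and 86.6 CPM at AngII+2W, and 6530 and 504.1 CPM at AngII+3W. All 10 were above the floor except in AngII+2W replicate 2, where 8 were, while Myl2, the myosin light chain of ventricular muscle, stayed between 0.487 and 1.73 CPM in every library. The sum of 11 skeletal muscle markers was 3007 CPM in AngII+3W replicate 1 and between 32.0 and 154.7 CPM in the other libraries. AngII+3W replicate 1 therefore stands apart, and the fold changes of the 7 genes for AngII+3W are given with and without it. Those of other genes include it, and their calls were not examined without it. Over the 8 libraries, adipocyte markers summed to 5292 to 8293 CPM and brown fat markers to 1465 to 3048 CPM. Fibroblast markers summed to 781.3 and 463.5 CPM in CTRL and to 1358 and 1764 CPM with AngII. For macrophage markers the sums were 145.4 and 117.9 CPM in CTRL, and 288.1 and 441.4 CPM with AngII. The part of these cells in the results was not tested. In bulk tissue, fewer cells of a type and less RNA per cell cannot be told apart.

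The proximal promoters are shown because Hsf1 is known to bind the promoters of several small heat shock genes. Windows of 300 bases, from 250 bases before to 50 bases after the start of transcription, were taken from RefSeq (build GRCm38.p6) for the 5 genes that matched, and Hspb2 and Cryab were not matched. They were searched on both strands for GAANNTTC, a pair of inverted GAA units of a heat shock element, which reads the same on both strands. At least 1 match was found in 4 of the 5 genes, and 9.04% of the 27025 genes in the promoter set had at least 1 window with a match. Hspb6 had 2 windows, and the window nearer to the start of the annotated gene, whose upstream part is chr7:30552290-30552539, held no match. The matches, in capitals, are shown with up to 11 flanking bases on either side, 5′ to 3′ on the strand of the gene.
Hspb1 (chr5:135887791-135887820, plus strand, match from 117 to 110 bases before the start): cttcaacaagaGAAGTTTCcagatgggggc
Hspb6 (chr7:30553170-30553199, plus strand, match from 120 to 113 bases before the start): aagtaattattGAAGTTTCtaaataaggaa
Hspb8 (chr5:116422844-116422873, minus strand, match at bases 3 to 10 of the transcript): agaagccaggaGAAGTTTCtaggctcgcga
Bag3 (chr7:128523614-128523632, plus strand, match at bases 43 to 50 of the transcript): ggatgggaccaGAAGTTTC

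The same 8 letters, GAAGTTTC, stood in all 4 matches, and 1.35% of all genes had a window with them. These letters were chosen after the matches had been seen, so that the share is a description. Hspb1 had a further match, GAACCTTC, from 97 to 90 bases before its start. Both are in capitals in its whole upstream window (chr5:135887669-135887918, plus strand), shown as the promoter of the gene that had, of the 7, the largest difference from CTRL in AngII+3W.
Hspb1 upstream: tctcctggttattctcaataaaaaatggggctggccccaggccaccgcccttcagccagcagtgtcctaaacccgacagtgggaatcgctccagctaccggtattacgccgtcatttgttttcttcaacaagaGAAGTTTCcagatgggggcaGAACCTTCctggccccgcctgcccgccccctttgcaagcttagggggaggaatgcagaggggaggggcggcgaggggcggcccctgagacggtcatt

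The window of Hspb7 held no GAANNTTC, and its upstream bases (chr4:141420529-141420778, plus strand) are shown for contrast.
Hspb7 upstream: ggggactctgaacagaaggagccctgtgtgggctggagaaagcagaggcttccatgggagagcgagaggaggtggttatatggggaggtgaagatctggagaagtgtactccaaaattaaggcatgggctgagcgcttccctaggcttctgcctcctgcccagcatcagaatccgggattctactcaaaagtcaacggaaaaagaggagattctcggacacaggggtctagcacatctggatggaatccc

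None of the windows of the 5 genes held TTCNNGAA, the same units in the opposite order (9.60% of all genes), or a CArG box, the motif bound by serum response factor in contractile genes (1.81% of all genes). A match or its absence describes these letters only. The RefSeq start of Bag3 lies 33 bases before that of the gene annotation used for the positions below. Both RefSeq starts of Hspb6 lie inside the annotated gene, and the one with the match is at base 30553301.

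Scaled by the length of the first annotated transcript, Hspb1 had the highest level of the 7 genes in CTRL, with 165.6 ± 5.27 CPM per kilobase (SD, n = 2 here and below). It was followed by Cryab with 102.4 ± 35.0, Hspb7 with 67.5 ± 20.8, Hspb8 with 45.4 ± 6.61, Bag3 with 39.0 ± 10.9, Hspb6 with 34.4 ± 7.91 and Hspb2 with 10.9 ± 1.85 CPM per kilobase. The library values of Cryab and Hspb7 overlapped, as did those of Hspb8 with Bag3 and Bag3 with Hspb6, so that the order within these pairs is not clear of the spread. Hspb1 lay clear of Cryab, Hspb7 of Hspb8, and Hspb6 of Hspb2. In AngII+3W the order was led by Cryab with 76.6 ± 55.4 CPM per kilobase, whose 2 libraries lay on either side of both libraries of Hspb1, at 42.2 ± 3.56 CPM per kilobase. As a share of the summed length-scaled level of the 7 genes, Hspb1 made up 32.1% and 40.2% in CTRL, 28.2% and 28.7% with AngII, 37.1% and 44.7% at AngII+2W, and 13.1% and 26.8% at AngII+3W. Cryab took 38.1% in AngII+3W replicate 1 and 22.4% in replicate 2.

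**Figure D1:**
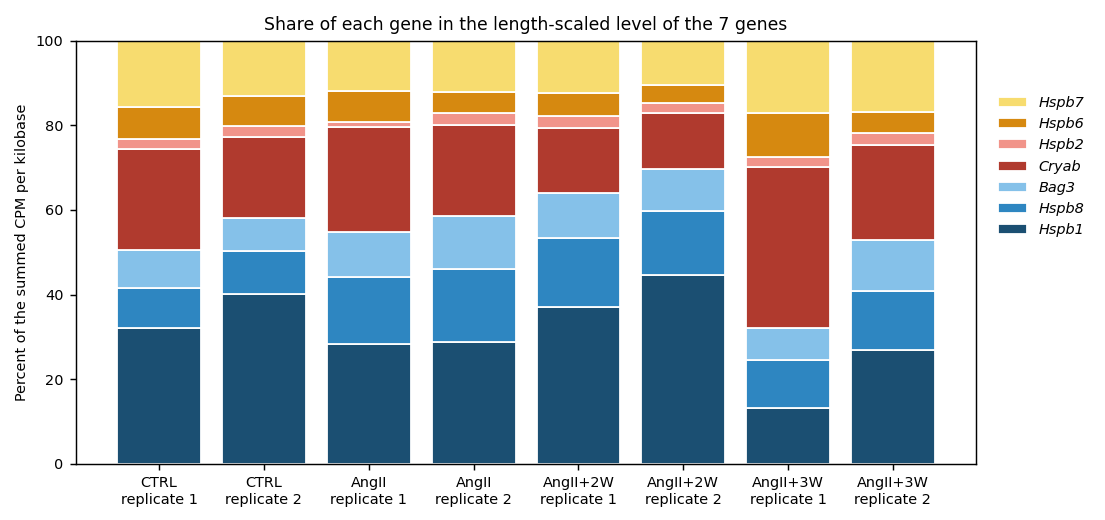
Share of each of the 7 genes in their summed level (CPM per kilobase of transcript, in percent) in each of the 8 libraries, as stacked bars. Hspb1 takes 13.1% in AngII+3W replicate 1, its lowest share in any library, where Cryab takes 38.1%.

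Hspb1 (chr5:135887919-135889563, plus strand, 3 exons, GRCm38) encodes Hsp25, the mouse form of Hsp27, an actin-associated chaperone that is phosphorylated downstream of p38 kinase and is abundant in smooth muscle. It was measured at 153 and 146 CPM in CTRL, 54.2 and 48.4 CPM with AngII, 66.1 and 76.1 CPM at AngII+2W, and 35.9 and 40.4 CPM at AngII+3W. No 2 groups overlapped, and the groups ran from CTRL through AngII+2W and AngII to AngII+3W in falling order. The share of all genes whose groups separate in this way was not counted, so that nothing is read from this separation. The log2 fold change from CTRL was -1.54 ± 0.13 (SE) for AngII, -1.07 ± 0.13 for AngII+2W and -1.97 ± 0.14 for AngII+3W. In linear terms the fitted levels were 0.343, 0.475 and 0.255 times that of CTRL. The ratio of replicate 1 to replicate 2 lay between 0.869 and 1.12 over the 4 groups, the narrowest range around 1 among the 7 genes.

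A processed pseudogene, Hsp25-ps1 (chr13:45078498-45079127, minus strand, 1 exon), matches bases 141 to 770 of the 903-base Hspb1 transcript, a stretch that holds the whole coding sequence (bases 141 to 767), with 99.4% identity. Its 4 differences, with the base of Hspb1 first and positions counted from the first base of the Hspb1 transcript, are C146T, G699A, T701C and T749C. A further annotated copy at the same place on the opposite strand, Gm9817, matches over 493 bases and was not analysed here. Hsp25-ps1 was listed with 3 counts in AngII+3W replicate 1 and with 0 in the other 7 libraries, against 667 to 3139 counts of Hspb1. Reads from the shared 630 bases could have been assigned to either gene, while the other 273 bases of the Hspb1 transcript have no match in the pseudogene as annotated. Gm9817 (chr13:45078692-45081222) covers only part of the annotated pseudogene and runs past its higher coordinate. Its match of 493 bases is longer than the stretch it shares with the pseudogene, so that some of these 273 bases have a match there.

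Hspb8 (chr5:116408491-116422864, minus strand, 3 exons) is the partner of Bag3 in the autophagy of filamin and other clients. Its level was 91.0 and 74.0 CPM in CTRL, 61.3 and 58.6 CPM with AngII, 58.3 and 51.7 CPM at AngII+2W, and 62.6 and 42.4 CPM at AngII+3W. Every AngII-treated library was below both CTRL libraries, and the 3 treated groups overlapped in part. Against CTRL the log2 fold change was -0.46 ± 0.20 for AngII, -0.58 ± 0.20 for AngII+2W and -0.65 ± 0.20 for AngII+3W, the smallest of the 7 genes at these first 2 time points.

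Bag3 (chr7:128523616-128546981, plus strand, 4 exons) was at 119.6 and 80.1 CPM in CTRL, 57.9 and 60.3 CPM with AngII, 54.3 and 47.4 CPM at AngII+2W, and 59.2 and 52.0 CPM at AngII+3W. As for Hspb8, all 6 treated libraries were below both CTRL libraries. On the log2 scale it differed from CTRL by -0.76 ± 0.19 for AngII, -0.97 ± 0.19 for AngII+2W and -0.85 ± 0.19 for AngII+3W. CTRL replicate 1 was 1.49 times replicate 2, and without CTRL replicate 1 the fold changes were -0.44 ± 0.14, -0.65 ± 0.14 and -0.53 ± 0.14. Among the 7 genes the profiles of Hspb8 and Bag3 over the 8 libraries were the closest, with a root mean square difference of 0.18 between their log2 CPM after centring each on its mean. They also varied least, with an SD of centred log2 CPM of 0.33 and 0.43, against 0.70 to 0.93 for the others. Genes that vary little lie close by this measure whether or not they change together.

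Cryab (chr9:50751325-50756636, plus strand, 3 exons) encodes alpha B-crystallin, a chaperone of desmin filaments that is abundant in heart and skeletal muscle and in the lens. It reached 120.2 and 73.5 CPM in CTRL, 49.9 and 37.8 CPM with AngII, 28.7 and 23.9 CPM at AngII+2W, and 109 and 35.4 CPM at AngII+3W. AngII and AngII+2W lay below CTRL without overlap, whereas the 2 libraries of AngII+3W lay on either side of CTRL replicate 2. The log2 fold change from CTRL was -1.14 ± 0.48 for AngII, -1.88 ± 0.49 for AngII+2W and -0.42 ± 0.47 for AngII+3W. Without AngII+3W replicate 1 the last value was -1.46 ± 0.32, and without AngII+3W replicate 2 its direction turned, to 0.12.

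Hspb2 (chr9:50751078-50752354, minus strand, 2 exons) encodes a chaperone of the myotonic dystrophy kinase and lies head to head with Cryab, with 614 bases between the starts of their first transcripts. Per length it was the weakest of the 7 genes in every library, and it stood at 9.45 and 7.43 CPM in CTRL, 1.94 and 4.12 CPM with AngII, 4.20 and 3.22 CPM at AngII+2W, and 5.21 and 3.49 CPM at AngII+3W, from 36 to 194 counts in a library. All 6 treated libraries were below both CTRL libraries, and the 3 treated groups overlapped. Its log2 fold change from CTRL was -1.47 ± 0.38 for AngII, -1.18 ± 0.37 for AngII+2W and -0.95 ± 0.37 for AngII+3W. The exons of Hspb2 share 252 bases with 1 of the 6 transcripts of Cryab on the opposite strand, and since the sources used here do not state whether strand was used in counting, reads from those bases cannot be given to 1 of the 2 genes with certainty.

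Hspb6 (chr7:30552178-30555443, plus strand, 3 exons) encodes Hsp20, which relaxes smooth muscle when it is phosphorylated by cyclic nucleotide-dependent kinases. Its level was 54.6 and 39.3 CPM in CTRL, 21.3 and 12.7 CPM with AngII, 15.1 and 11.2 CPM at AngII+2W, and 43.4 and 11.6 CPM at AngII+3W. AngII and AngII+2W lay below CTRL without overlap, and AngII+3W replicate 1 lay above CTRL replicate 2. Against CTRL the log2 fold change was -1.47 ± 0.55 for AngII, -1.83 ± 0.56 for AngII+2W and -0.77 ± 0.54 for AngII+3W. Without AngII+3W replicate 1 the last value was -2.02 ± 0.37.

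Hspb7 (chr4:141420779-141425311, plus strand, 3 exons), also called cvHsp for its place in heart and vessels, binds filamin C. It was measured at 228 and 146 CPM in CTRL, 70.5 and 62.8 CPM with AngII, 67.0 and 54.3 CPM at AngII+2W, and 143 and 77.5 CPM at AngII+3W. The treated libraries were all below CTRL. AngII+3W replicate 1, at 143 CPM, came nearest to CTRL replicate 2, at 146 CPM. On the log2 scale it differed from CTRL by -1.49 ± 0.32 for AngII, -1.62 ± 0.32 for AngII+2W and -0.76 ± 0.31 for AngII+3W. Without AngII+3W replicate 1 the last value was -1.27 ± 0.28.

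**Figure D2:**
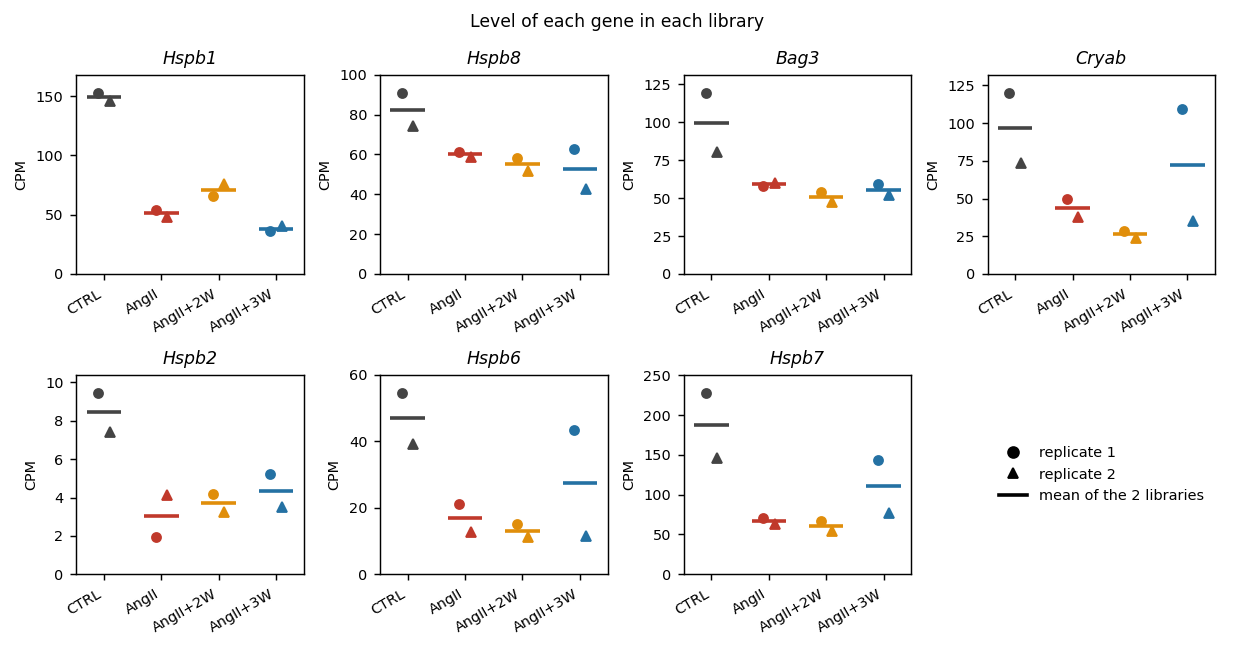
CPM of each gene in each of the 8 libraries (y axis from 0, one panel per gene), by group, with circles for replicate 1, triangles for replicate 2 and a line at the mean of the 2 libraries. CTRL is the highest group mean for all 7 genes, and in AngII+3W replicate 1 stands above replicate 2 for every gene but Hspb1.

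Against CTRL, the fitted fold change of all 7 genes was negative with AngII, at AngII+2W and at AngII+3W, as it was for 51%, 50% and 46.4% of all genes. The median over the 7 genes was -1.47 with AngII, -1.18 at AngII+2W and -0.77 at AngII+3W on the log2 scale, while the medians over all 17182 genes tested were -0.01, 0.00 and 0.03. The 3 comparisons share the 2 CTRL libraries, and CTRL replicate 1 was the highest library for all 7 genes. With 1 library left out, the fold change with AngII ran from -1.63 to -1.46 for Hspb1 and from -2.11 to -1.03 for Hspb2. It ran from -1.88 to -1.14 for Hspb6, -1.78 to -1.13 for Hspb7 and -0.61 to -0.30 for Hspb8. For Cryab the range was -1.46 to -0.74 and for Bag3 -1.03 to -0.44. Both libraries lay below both CTRL libraries for 7 genes with AngII (24.9% of all genes), for 7 at AngII+2W (22.2%) and for 5 at AngII+3W (18.3%), the exceptions being Cryab and Hspb6. At a false discovery rate (FDR) below 0.05, by the quasi-likelihood F test of edgeR, adjusted over all genes after Benjamini and Hochberg, 2 of the 7 genes (Hspb1 and Hspb7) were called lower in AngII, where 5.1% of all genes were called and 2.2% were called lower. In AngII+3W Hspb1 was called, where 0.285% of all genes were called and 0.268% were called lower. Since the genes were chosen with these 2 comparisons known, nothing is read from these counts. With DESeq2, 5 genes were called lower in AngII (Hspb1, Hspb2, Hspb7, Cryab and Bag3), where it called 4.11% of all genes lower, and 2 in AngII+3W (Hspb1 and Bag3), where it called 3.02% lower. With 1 library left out, edgeR called 0 to 5 of the genes in AngII (0 without AngII replicate 2), beside 0% to 4.09% of all genes called lower, and 0 to 2 in AngII+3W, beside 0% to 1.98%. At AngII+3W the call of Hspb1 stood only without CTRL replicate 2 or without AngII+3W replicate 2. Without AngII+3W replicate 1 the log2 fold change at AngII+3W was -1.89 ± 0.17 for Hspb1, -1.28 ± 0.45 for Hspb2, -0.96 ± 0.18 for Hspb8 and -0.95 ± 0.25 for Bag3.

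In AngII+2W none of the 7 genes was called against CTRL by edgeR, as was the case for all other genes (0% called). The genes were chosen with other comparisons against the same CTRL libraries known, so that the values of this comparison are a description. At an unadjusted p below 0.05 all 7 were lower, where 6.18% of all genes were. With DESeq2 4 were called lower (Hspb1, Hspb7, Cryab and Bag3), as were 1.58% of all genes, and with limma-voom 0. Hspb1 had the fourth smallest p of all genes in this comparison, with an FDR of 0.174 by edgeR and a 95% interval of the log2 fold change from -1.38 to -0.77. Bag3 had an FDR of 0.198 and Hspb7 of 0.192, and those of the other genes lay between 0.291 and 0.355. With either AngII+3W library removed, 4 of the 7 genes were called in AngII+2W (Hspb1, Hspb6, Hspb7 and Cryab), where 1.27% (without replicate 1) and 1.33% (without replicate 2) of all genes were called lower, and for Hspb1 the FDR was then 0.0304 or 0.0280. Of the 10 cardiac muscle markers 9 were also lower than CTRL at an unadjusted p below 0.05, with a median log2 fold change of -5.33 over the 10. In a fit with the level of these markers as a covariate, chosen after the data were seen, Hspb1 was at -1.33 ± 0.24, Hspb7 at -0.52 ± 0.37, Bag3 at -0.56 ± 0.33 and Cryab at -0.12 ± 0.57, and the values of Hspb6 (0.21 ± 0.61) and Hspb8 (0.064 ± 0.25) were positive. Since the cardiac marker sums of AngII+2W and CTRL did not overlap, this fit cannot separate group from marker level.

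**Figure D3:**
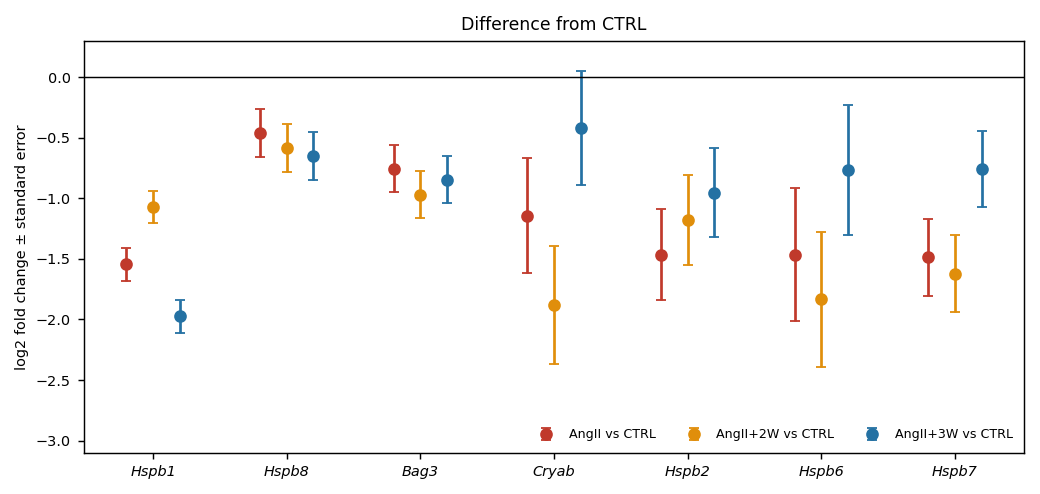
Log2 fold change from CTRL with its standard error (y axis) for each gene in AngII, AngII+2W and AngII+3W. Hspb1 reaches -1.97 in AngII+3W with short error bars, while Cryab runs from -1.88 in AngII+2W to -0.42 in AngII+3W with long ones.

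Between AngII and AngII+2W, the question was whether the levels differed once the infusion had stopped. Hspb1 was higher in AngII+2W, 71.1 ± 7.03 against 51.3 ± 4.08 CPM, with a log2 fold change of 0.47, a 95% interval from 0.17 to 0.78 and an FDR of 0.160 by edgeR, which does not pass the threshold. Hspb2 had a positive fold change too (0.29), and those of Hspb6 (-0.37), Hspb7 (-0.13), Hspb8 (-0.13), Cryab (-0.74) and Bag3 (-0.22) were negative, with FDR values from 0.543 to 0.893. None of the 7 genes was called by edgeR, DESeq2 or limma-voom, against 0.163% of all genes by edgeR, and Hspb1 alone had an unadjusted p below 0.05, as 15% of all genes had. The smooth muscle markers, like Hspb1, were higher in AngII+2W, all 10 in fitted fold change and 8 of 10 at an unadjusted p below 0.05, and their part in the difference of Hspb1 was not tested. Of the 10 cardiac muscle markers 9 were lower in AngII+2W in fitted fold change, 5 of them at an unadjusted p below 0.05, with a median of -3.41. With their level as a covariate, the 5 negative values turned positive, to 1.09 for Hspb6, 0.64 for Hspb7, 0.34 for Hspb8, 0.52 for Cryab and 0.073 for Bag3, and Hspb1 was at 0.29. The cardiac marker sums of AngII and AngII+2W did not overlap, so that this fit cannot separate group from marker level.

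Between AngII and AngII+3W none of the 7 genes was called by edgeR, DESeq2 or limma-voom, while 1.61% of all genes were called by edgeR. At an unadjusted p below 0.05, which 17.8% of all genes reached, Hspb1 was lower (-0.43, 95% interval -0.74 to -0.12, FDR 0.157) and Hspb7 higher (0.73, 95% interval 0.00 to 1.45, FDR 0.278). Cryab (0.72, FDR 0.461), Hspb6 (0.70, FDR 0.540) and Hspb2 (0.51, FDR 0.519) had positive fold changes, and Hspb8 (-0.19, FDR 0.647) and Bag3 (-0.09, FDR 0.846) had small negative ones. For Bag3 the 95% interval, from -0.54 to 0.36, leaves room for a difference in either direction. The values of Cryab and Hspb6 turned negative, to -0.30 and -0.54, without AngII+3W replicate 1, and that of Hspb7 was 0.23. Hspb1 was then at -0.33, Hspb2 at 0.20, Hspb8 at -0.49 and Bag3 at -0.18. All 10 cardiac muscle markers had a positive fold change here (median 1.39, none at an unadjusted p below 0.05), as had the 10 skeletal muscle markers tested (median 7.48, 8 at an unadjusted p below 0.05), and their part in these values was not tested.

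Between AngII+2W and AngII+3W, Hspb1 was lower at the later time, 38.1 ± 3.22 against 71.1 ± 7.03 CPM. Its log2 fold change was -0.90 (95% interval -1.21 to -0.59, FDR 0.157 by edgeR) and its p was the nineteenth smallest of all genes. Cryab (1.46, FDR 0.436) and Hspb7 (0.86, FDR 0.473) were higher at an unadjusted p below 0.05, which 8.83% of all genes reached. No gene of the 17182 was called here by edgeR (0%), while among the 7 DESeq2 called Hspb1 and Cryab, beside 1.31% of all genes, and limma-voom called 0. Fold changes of Hspb6 (1.06, FDR 0.625), Hspb2 (0.23, FDR 0.906), Bag3 (0.13, FDR 0.895) and Hspb8 (-0.07, FDR 0.955) did not pass either threshold. Without AngII+3W replicate 2, edgeR called Hspb1, Hspb6 and Cryab, beside 2.42% of all genes. With replicate 1 of that group left out it called none, and Hspb1 was at -0.82, Cryab at 0.43, Hspb7 at 0.35, Hspb8 at -0.37, Bag3 at 0.030, Hspb6 at -0.18 and Hspb2 at -0.091, the last 2 with the sign turned. At the later time 9 of 10 cardiac muscle markers (median 5.07) and all 10 skeletal muscle markers tested (median 6.79) were higher at an unadjusted p below 0.05, and the part of the skeletal markers was not tested. With the cardiac marker level as a covariate Hspb1 was at -0.69, while Cryab (-0.13) and Hspb7 (-0.066) turned negative, as did Hspb6 (-0.81), Hspb2 (-0.38) and Bag3 (-0.20). These groups did not overlap in their cardiac marker sums either, so that group and marker level cannot be separated in this fit.

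The 7 genes differed in how far the 2 libraries of AngII+3W lay apart. The level in replicate 1 was 3.74 times that in replicate 2 for Hspb6, 3.09 times for Cryab, 1.85 times for Hspb7, 1.49 times for Hspb2, 1.48 times for Hspb8 and 1.14 times for Bag3, and it was 0.887 times for Hspb1. The summed cardiac muscle markers were 13.0 times as high in replicate 1 as in replicate 2, the summed skeletal muscle markers 66.5 times, and the smooth muscle markers 0.530 times. In AngII+3W Hspb1 and the smooth muscle markers were thus lower in replicate 1, and the other 6 genes were higher along with the striated muscle markers. The same ratio in CTRL was 1.56 for Hspb7, 1.64 for Cryab and 1.05 for Hspb1, beside 2.24 for the cardiac muscle markers and 1.28 for the smooth muscle markers. With the level of the cardiac muscle markers as a covariate, Hspb1 was at -1.62 ± 0.14 for AngII, -1.33 ± 0.24 for AngII+2W and -2.03 ± 0.14 for AngII+3W against CTRL. In that fit Cryab was at -0.64 ± 0.32, -0.12 ± 0.57 and -0.24 ± 0.29, and Hspb6 at -0.89 ± 0.34, 0.21 ± 0.61 and -0.61 ± 0.32. Hspb7 was at -1.17 ± 0.21, -0.52 ± 0.37 and -0.59 ± 0.20, and Hspb2 at -1.24 ± 0.38, -0.44 ± 0.64 and -0.83 ± 0.36. Hspb8 was at -0.27 ± 0.15, 0.064 ± 0.25 and -0.54 ± 0.14, and Bag3 at -0.63 ± 0.20, -0.56 ± 0.33 and -0.76 ± 0.19. The fold change of Hspb1 was thus larger in size within this fit in all 3 comparisons, and those of the other 6 genes were smaller, with the signs of Hspb6 and Hspb8 turned at AngII+2W. With AngII and at AngII+2W the cardiac marker sums lay below both CTRL libraries, so that the fit cannot separate group from marker level there. At AngII+3W the cardiac, skeletal and smooth muscle markers all differed between the 2 libraries, so that the fit cannot separate their parts. The covariate was chosen after the data were seen.

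**Figure D4:**
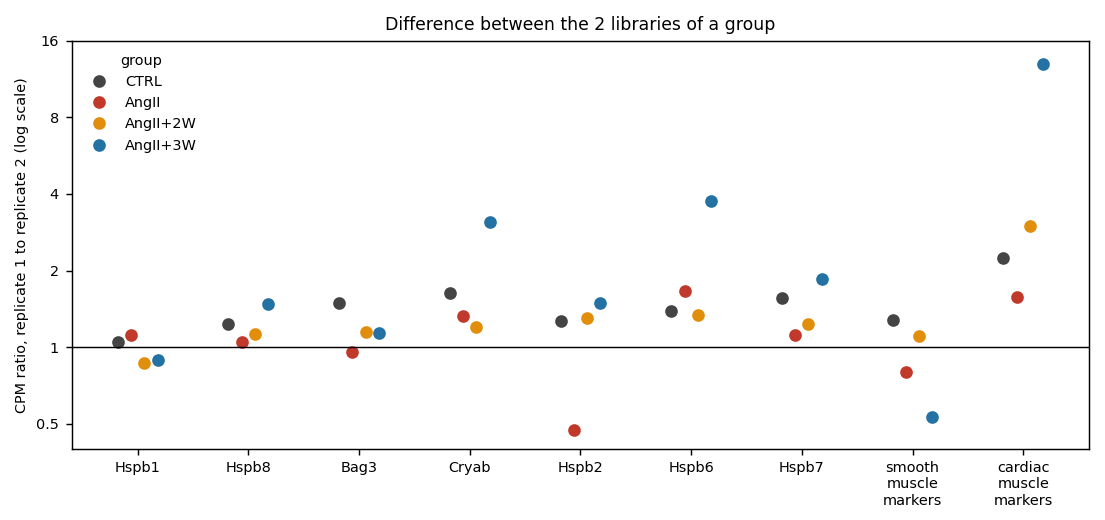
CPM in replicate 1 divided by that in replicate 2 (log scale) for each gene and for the summed smooth and cardiac muscle markers, with 1 point per group and a line at 1. In AngII+3W the ratio runs from 0.887 for Hspb1 to 3.74 for Hspb6, between 0.530 for the smooth muscle markers and 13.0 for the cardiac muscle markers.

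**Figure D5:**
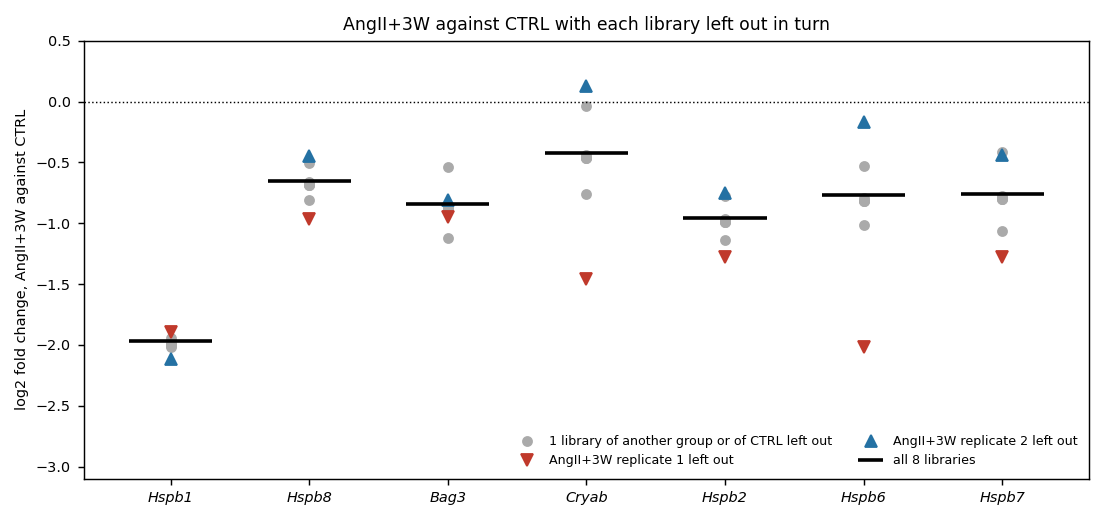
Log2 fold change of AngII+3W against CTRL (y axis) in all 8 libraries (bars) and with 1 library left out (points, with AngII+3W replicate 1 or 2 left out in colour). Hspb1 stays between -2.11 and -1.89, while Cryab runs from -1.46 to 0.12 and Hspb6 from -2.02 to -0.17.

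Other genes of the route from small heat shock proteins to autophagy were counted from lists written with earlier results known, so that the counts are descriptions. Of 11 partners of Bag3 in selective autophagy, 4 were called lower in AngII (2.2% of all genes), none in AngII+2W (0%) and 1 in AngII+3W (0.268%). None was called higher. Synpo2, the scaffold that brings Bag3 to the Z-disc and to actin, was at 846 and 656 CPM in CTRL, 166 and 171 CPM with AngII, 396 and 402 CPM at AngII+2W, and 213 and 295 CPM at AngII+3W. It was called lower in AngII (-2.16 ± 0.20) and in AngII+3W (-1.56 ± 0.20). The calls of listed genes at AngII+3W were not examined without AngII+3W replicate 1. Flnc, filamin C and a client of the route, was called in AngII (-1.43 ± 0.25), with -1.57 ± 0.25 for AngII+2W and -1.09 ± 0.24 for AngII+3W. The inducible Hsp70 genes Hspa1a (-3.47 ± 0.71) and Hspa1b (-3.68 ± 0.74) were called lower in AngII, and as near-identical copies of each other they are uncertain separately. Hspa1a was at 297 CPM in CTRL replicate 1 and 66.2 CPM in CTRL replicate 2, against 9.14 to 28.1 CPM in the 6 treated libraries, so that the size of its difference depends on which CTRL library is used. Hspa8, the constitutive Hsc70, was at -0.56 ± 0.18, -0.53 ± 0.18 and -1.20 ± 0.18 in the 3 comparisons with CTRL and was not called.

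Of 14 other chaperones known as targets of Hsf1, none was called in AngII+2W, where 0% of all genes were called. Hsph1, an Hsp110 nucleotide exchange factor for Hsp70, was called lower in AngII (-1.17 ± 0.25), as were 2.2% of all genes. It was also called lower in AngII+3W (-1.86 ± 0.26), as were 0.268% of all genes. The median over the 14 was -0.44 with AngII, -0.30 at AngII+2W and -0.58 at AngII+3W. Over all genes tested the medians were -0.01, 0.00 and 0.03. All 14 had a negative fold change in AngII+3W, as had 46.4% of all genes. Of the 3 heat shock factors none was called in any comparison with CTRL, and Hsf1 itself was at -0.50 ± 0.19, -0.34 ± 0.19 and -0.34 ± 0.19. Immediate early genes, which respond to the handling of tissue, were also highest in CTRL, at 370.4 and 258.7 CPM in sum over 6 genes against 112.2 to 243.3 CPM in the treated libraries, and their part in the results on heat shock genes was not tested. Of 5 filament proteins that small heat shock proteins protect, Flna, filamin A, was called lower in AngII (-1.73 ± 0.35), as were 2.2% of all genes. Des, the desmin of muscle intermediate filaments and a client of Cryab, was at 188 CPM in AngII+3W replicate 1 and 26.2 CPM in replicate 2, and it was not called in any comparison with CTRL.

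Other members of the same families were not called in any comparison with CTRL. Of 5 further small heat shock genes, Hspb3, Hspb9, Odf1 and Cryaa were too low to be tested, with at most 11 counts in a library. Hspb11, a protein of intraflagellar transport, was tested and had positive fold changes from CTRL (0.27 ± 0.19, 0.33 ± 0.19 and 0.30 ± 0.19). All 5 other Bag genes were tested and none was called in any comparison. Bag2, an inhibitor of the ubiquitin ligase Stub1, had values of -0.72 ± 0.24, -0.81 ± 0.24 and -0.42 ± 0.24 in the 3 comparisons with CTRL, and Bag4 had 0.23 ± 0.14, 0.47 ± 0.14 and 0.56 ± 0.14.

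Profiles over the 8 libraries were compared by the root mean square difference of centred log2 CPM. Among genes outside the 7, those nearest to the mean profile of the 7 were Klhl23 (0.15), Rrad (0.16), a small GTPase that dampens calcium channels, Flnc (0.17), Cav3 (0.18), the caveolin of striated muscle, and Bdh1 (0.21), a mitochondrial enzyme of ketone body metabolism. Nearest to Hspb1 alone were Tes (0.22), a protein of focal adhesions, Pkdcc (0.23) and Mmp17 (0.25), a membrane-bound metalloproteinase. Within the 7 genes, Hspb6 and Cryab differed by 0.25 and Hspb7 and Cryab by 0.29, and the farthest pair was Hspb1 and Cryab with 0.92. Hspb1 was at least 0.52 from every other member, its nearest being Bag3. These distances depend on how far each gene varies, and Bag3 varied less than Hspb1 (SD of centred log2 CPM 0.43 against 0.79). The 8 libraries share their groups and their pools of mice, so that these distances describe the libraries and carry no test.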

How the data were processed

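The authors depleted ribosomal RNA, sequenced 8 libraries and quantified transcripts with Salmon. Their gene table, as deposited, gives expected counts per gene that are whole and not normalized. Strand use in counting is not given in the sources used here. The test was that of edgeR 4.0.16 under R 4.3.3 (filterByExpr, TMM, quasi-likelihood F test in its older form), with 1 fit over all 8 libraries and 1 coefficient per group (4 residual degrees of freedom). P-values are two-sided and adjusted over 17182 genes. The p-values rest on 2 pools of mice per group. CPM use TMM library sizes, and likeness uses a prior count of 2. The 6 comparisons, the alternatives and the gene lists were fixed with earlier results of these data known, as were the 7 genes. The genes named are these 7, copies of them, members of the lists and the genes nearest in profile. Positions and transcript lengths are from GENCODE M21, copies were searched with BLAST 2.17.0, and promoters are RefSeq windows of the same build. DESeq2 1.42.0 and limma-voom (limma 3.58.1) were among the alternatives. The scripts were tested on simulated data.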

Additional observations from a re-analysis of the deposited data

How the results depend on the processing

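Most fold changes kept their direction and their side of the threshold (767 of the values over all alternatives), while 33 passed it only in an alternative, 14 lost it and 26 changed sign. For the number of the 7 genes called, 96 pairs of an alternative and a comparison gave the same or a similar count and 24 did not. In AngII against CTRL, where 2 were called, DESeq2 called 5 and a fit of only the 2 groups called 4. In AngII+2W against CTRL DESeq2 called 4, in AngII+3W against CTRL DESeq2 called 2 and the fit of 2 groups 0, and in AngII+3W against AngII+2W DESeq2 called 2. Leaving out 1 library gave 0 to 5 genes in AngII (0 without AngII replicate 2, 1 without CTRL replicate 1, AngII replicate 1 or either library of AngII+2W, 5 without either library of AngII+3W). It gave 0 to 4 in AngII+2W, 0 to 2 in AngII+3W (0 without CTRL replicate 1, AngII+3W replicate 1 or any library of AngII or AngII+2W, 2 without CTRL replicate 2), 0 to 1 in AngII+3W against AngII (Cryab, without AngII+3W replicate 2) and 0 to 3 in AngII+3W against AngII+2W, and 0 in AngII+2W against AngII. Where 1 library was left in a group, it was assumed to vary like the others. For several of these fits the share of all genes called is not given, so that nothing is read from these counts.

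2 alternatives were added after the data were seen. With the cardiac marker level as a covariate, the sign changed in AngII+2W against CTRL for Hspb6 (0.21) and Hspb8 (0.064), in AngII+2W against AngII for Hspb6 (1.09), Hspb7 (0.64), Hspb8 (0.34), Cryab (0.52) and Bag3 (0.073), and in AngII+3W against AngII+2W for Hspb2 (-0.38), Hspb6 (-0.81), Hspb7 (-0.066), Cryab (-0.13) and Bag3 (-0.20). Without CTRL replicate 1 and AngII+3W replicate 1 together, it changed in AngII+3W against AngII for Hspb6 (-0.54) and Cryab (-0.30) and in AngII+3W against AngII+2W for Hspb2 (-0.090) and Hspb6 (-0.18). With 1 library left out, the sign changed within these ranges: in AngII+3W against CTRL Cryab -1.46 to 0.12, in AngII+2W against AngII Hspb2 -0.16 to 0.94, Hspb6 -0.69 to 0.037 and Hspb7 -0.30 to 0.0086, in AngII+3W against AngII Hspb6 -0.54 to 1.31, Hspb8 -0.49 to 0.014 and Cryab -0.30 to 1.27, and in AngII+3W against AngII+2W Hspb2 -0.091 to 0.44, Hspb6 -0.18 to 1.67 and Hspb8 -0.37 to 0.14. The cause of these changes was not tested. Both AngII+2W libraries had lower cardiac marker sums than any other library, so that the covariate fit cannot separate that group from marker level.

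The replicate numbers are shared between groups, but the correlations of the replicate differences ran from -0.04 to 0.25 and were not above 0.1 for every pair of groups, so that the numbers are not taken to pair the samples. With a replicate block the number of the 7 genes called against CTRL was 2 with AngII, 0 at AngII+2W and 1 at AngII+3W, and 0 in the other 3 comparisons, as without the block. Over all genes the block called 4 genes at AngII+3W against CTRL, where 49 were called without it.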
